A study of Homo sapiens with 4 samples.

Results

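The collagen genes were the 44 genes whose symbol has the form COL, a number, A and a number, found among 25006 genes that the array probes could be named for through RefSeq accessions. They were measured by 57 of the 58201 gene probes on the array, and 33 genes had 1 probe, 9 had 2 and 2 (COL11A2 and COL19A1) had 3. For each gene the probe with the highest mean signal was used. HML58-3, a derivative of the HCT116 colorectal cancer cell line engineered with a luciferase reporter whose marker promoter is methylated, was treated with mock or with 1 µM of DAC (decitabine), OR-2003 or OR-2100 from day 1 and collected on day 5. DAC is a cytidine analogue that traps DNA methyltransferases and so lowers DNA methylation, and OR-2003 and OR-2100 are prodrugs that release it. All 4 arrays carried RNA of this 1 cell line in culture, and the 3 comparisons with mock share the 1 mock array. Each condition was 1 array, so differences are reported without a p-value.

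Collagens are secreted or membrane proteins whose chains wind around each other into a stiff helix. Fibrillar collagens form the fibers of connective tissue and are made mainly by fibroblasts, network collagens such as collagen IV line the basement membrane under epithelia, and fibril-associated collagens with interrupted helices (FACITs) sit on the surface of fibrils. The chains are modified in the endoplasmic reticulum by prolyl and lysyl hydroxylases, and fibrils are trimmed and cross-linked outside the cell.

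Levels are given as log2 intensity after setting each array's 75th percentile over gene probes to 0, so a level of 0 is the brightness of that percentile and differences of 1 are 2-fold. Levels of different probes are not comparable with each other. An induced gene exceeded its mock level by 2-fold or more and had a level no lower than -1 after the drug, and a reduced gene met the mirror condition. Across the arrays 31601 to 33282 of the gene probes were well above background by the scanner software, and the median SD between 10 spots of 1 probe was 0.059 to 0.067 on the log2 scale, which covers the spread within an array only.

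More collagen genes were higher than lower with each drug. DAC induced 8 of the 44 genes (18.2%, where 5.77% of all named genes were induced), OR-2003 induced 8 (18.2%, against 5.89% of all genes) and OR-2100 induced 9 (20.5%, against 5.81%). The same 8 genes were induced by all 3 drugs (18.2%, against 5.27%): COL4A2, COL5A1, COL8A2, COL9A2, COL9A3, COL14A1, COL16A1 and COL20A1. Reduced genes numbered 2 with DAC (4.55%, against 5.96% of all genes), 1 with OR-2003 (2.27%, against 6.05%) and 2 with OR-2100 (4.55%, against 6.82%), and only COL4A5 was reduced by all 3 (2.27%, against 5.21%). The 75th percentile was also taken only over probes well above background on all 4 arrays, called bright probes from here on. This lowered the median mock level by 2.42. With DAC 5 collagen genes were then induced and 0 reduced, where 3.32% of all named genes were induced and 2.27% reduced. Scaling by the median of each array, which raised the mock level by 3.63, gave 15 induced and 4 reduced with DAC, where 11.6% and 12.4% of all genes were. The percentile of bright probes ended the calls of COL4A2, COL5A1, COL8A2 and COL14A1 with every drug and of COL9A2 with DAC and OR-2003, whose levels then lay under -1. The median log2 difference from mock over the 44 genes was 0.53 with DAC, 0.55 with OR-2003 and 0.60 with OR-2100, where the median over all named genes was -0.12, -0.093 and -0.23. Of the 44 genes, 28, 30 and 28 (63.6%, 68.2% and 63.6%) lay above the mock level with the 3 drugs in that order. Over all named genes 39.1%, 41.7% and 35.8% did. Both counts include genes not well above background on any array. Over the 25 collagen genes well above background on all 4 arrays the medians were 0.54, 0.56 and 0.54, against -0.18, -0.17 and -0.21 over 15977 genes measured the same way.

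**Figure D1:**
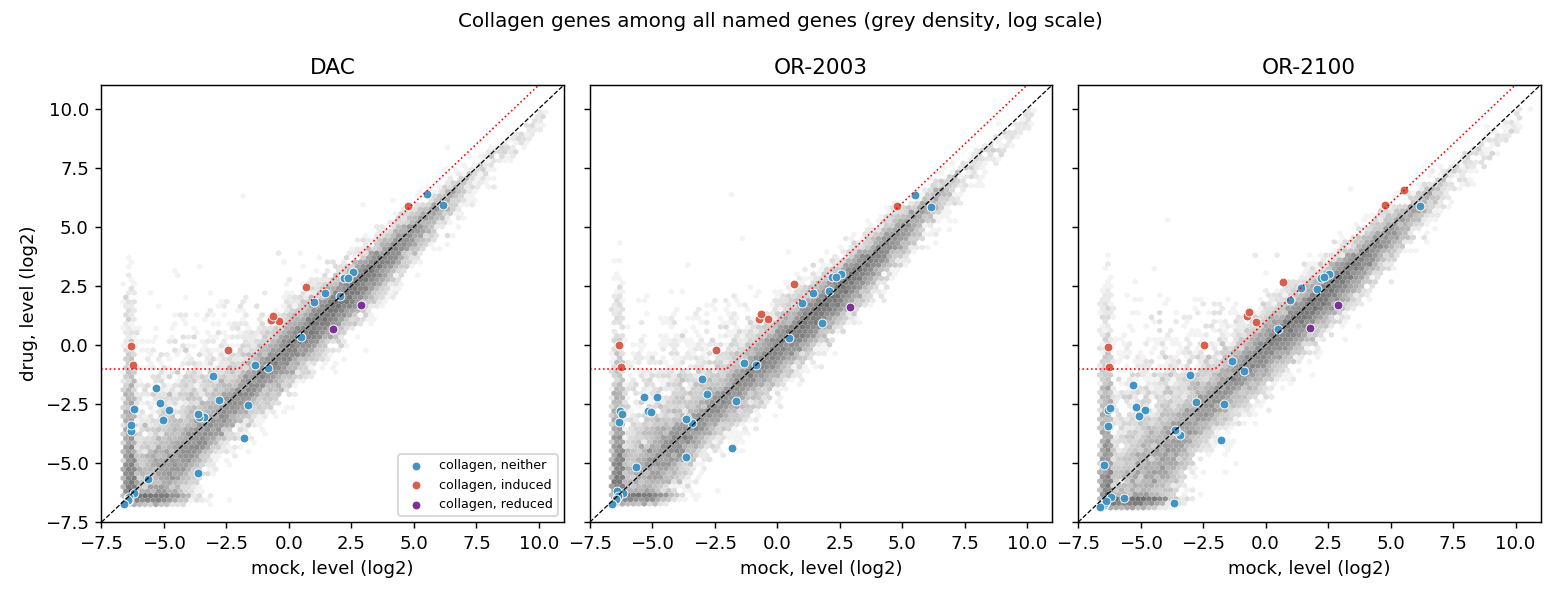
Level of every named gene with each drug (y axis) against its level on the mock array (x axis), both in log2 intensity with the 75th percentile set to 0; grey shows the density of 25006 genes, colored points the 44 collagen genes, the dashed line equality and the red dotted line the limit for induced genes. The collagen genes above that limit number 8, 8 and 9, and they range from genes at the bottom of the mock axis (COL8A2, COL14A1) to bright ones (COL9A3).

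By class, the induced genes were mostly FACITs. Of 10 FACIT genes, 5 were induced by each drug (COL9A2, COL9A3, COL14A1, COL16A1 and COL20A1) and 0 were reduced, with a class median of 1.43, 1.46 and 1.54 on the log2 scale. Over all named genes 5.77% to 5.89% were induced. The count depended on the choice of probe. COL14A1 and COL16A1 lost the call with every drug when a gene's probes were averaged, and also with the probe brightest on mock. Of 11 fibrillar genes 1 was induced (COL5A1), of 6 basement membrane genes 1 (COL4A2), and of 3 short-chain network genes 1 (COL8A2). The 5 beaded filament genes of collagen VI held 1 induced gene with OR-2100 (COL6A1). The transmembrane, multiplexin and anchoring fibril genes, and COL26A1 and COL28A1, held none.

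**Figure D2:**
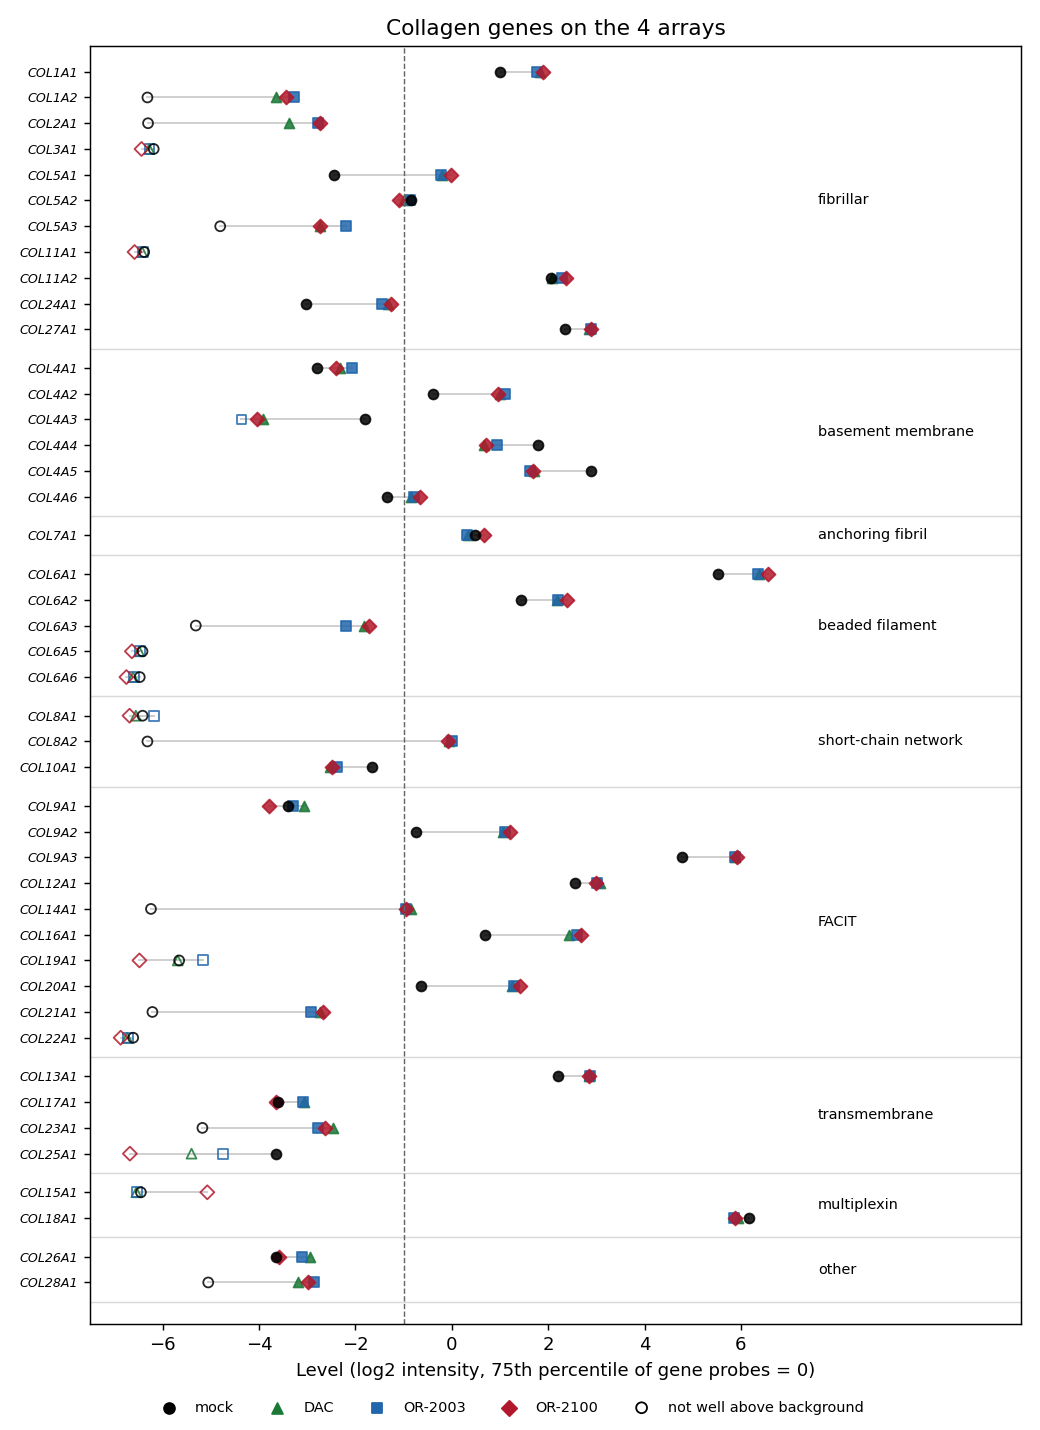
Level of each of the 44 collagen genes on the 4 arrays (x axis, log2 intensity with the 75th percentile set to 0), grouped by class; symbols stand for arrays, open symbols for a probe not well above background, and the dashed line for the level of -1 that an induced gene had to reach. For most genes the 3 drug symbols lie close together, and COL8A2 and COL14A1 show the widest distance from the mock array.

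By the probe used, COL8A2 and COL14A1 went from a mock signal not well above background to a level near the 75th percentile of the array or somewhat below it. COL8A2, a short-chain collagen of the basement membrane of the corneal endothelium, had a level of -6.32 on the mock array, where its probe was not well above background, and -0.06, 0.01 and -0.08 with the drugs in the order DAC, OR-2003, OR-2100. All 3 drug arrays were far above mock and within 0.093 of each other. As the mock level is only a bound, the difference was at least 18.7-fold, 19.7-fold and 18.4-fold, measured against the higher of the mock signal itself and the lowest signal well above background there (-4.29). A second COL8A2 probe was well above background on all 4 arrays, at -4.06 on mock and -1.70, -2.16 and -2.18 with the drugs, differences of 2.37, 1.90 and 1.88. It did not reach the level of -1, so with this probe COL8A2 was not counted as induced.

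COL14A1, a FACIT that binds fibrils of collagen I, had -6.24 on mock, not well above background, and -0.86, -0.95 and -0.95 with the drugs. This gave differences of at least 10.8-fold, 10.1-fold and 10.1-fold. The drug levels were just over the threshold of -1, and OR-2003 fell under it when the arrays were scaled by spike-in probes. A second COL14A1 probe rose from -4.61, also not well above background, to -1.60, -1.80 and -1.58. Both probes were thus higher with every drug, and only the brighter one reached the threshold. Normexp background correction, which models the background of each array and adds an offset of 50, compresses dim signals and gave smaller differences, of 1.63, 1.64 and 1.58 on the log2 scale for COL8A2 and 1.18, 1.12 and 1.07 for COL14A1.

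The promoter of COL8A2 is shown because this gene had the widest difference of the 44, and that of COL5A1 because it had the widest among induced genes measured on all 4 arrays. Both are the 250 bases before the RefSeq start, GRCh38.p14, 5′ to 3′ on the strand of the gene, with CG dinucleotides, the bases where DNA methylation occurs, in capitals. COL8A2 lies at chr1:36125223-36125472 on the minus strand and COL5A1 at chr9:134641553-134641802 on the plus strand.
COL8A2: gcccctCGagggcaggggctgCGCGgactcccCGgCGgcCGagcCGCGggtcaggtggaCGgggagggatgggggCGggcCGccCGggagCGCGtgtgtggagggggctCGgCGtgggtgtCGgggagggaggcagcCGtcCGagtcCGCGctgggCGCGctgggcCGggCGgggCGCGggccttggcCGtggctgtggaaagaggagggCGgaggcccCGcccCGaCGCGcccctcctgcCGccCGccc
COL5A1: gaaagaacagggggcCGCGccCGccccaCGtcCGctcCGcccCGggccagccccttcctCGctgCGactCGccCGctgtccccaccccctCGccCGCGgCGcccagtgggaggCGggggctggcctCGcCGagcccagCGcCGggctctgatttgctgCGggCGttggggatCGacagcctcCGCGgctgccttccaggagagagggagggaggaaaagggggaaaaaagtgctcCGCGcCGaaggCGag
The COL8A2 stretch holds 35 CG and the COL5A1 stretch 29, where the median of 18712 promoters of genes on the array was 16. Both hold GGGCGG, searched on both strands, as did 51% of all promoters of this length. Neither holds CCAAT (34.1% of all promoters) or TATAAA (9.63%). A promoter was found for 32 of the 44 collagen genes (72.7%), under the 80% needed, so a comparison of CG content over the collagen genes is void and none was made. Methylation was not analysed here.

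COL5A1, the main chain of collagen V, which starts the assembly of collagen I fibrils, was measured on all 4 arrays. Its level was -2.44 on mock and -0.21, -0.21 and -0.01 on the 3 drug arrays, 4.71-fold, 4.69-fold and 5.40-fold higher. The drug arrays were all above mock by more than they differed from each other (0.21). Its second probe lay near background, at -6.22 on mock and -4.06, -4.33 and -3.66 with the drugs, and was well above background with OR-2100 alone. The mean of both probes stayed under the level of -1. With normexp the differences of COL5A1 were 1.10, 1.12 and 1.29 on the log2 scale.

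Among the FACITs measured on all 4 arrays, COL20A1 changed most. COL20A1 had -0.64 on mock and 1.24, 1.30 and 1.41 with the drugs, differences of 1.89, 1.94 and 2.05. Its second probe was also at least 2-fold higher with each drug, from -1.95 to -0.75, -0.68 and -0.72. COL9A2 and COL9A3 encode chains of collagen IX, which covers collagen II fibrils in cartilage. COL9A2 had -0.74 on mock and 1.07, 1.09 and 1.21 with the drugs, 3.50-fold, 3.56-fold and 3.85-fold higher. COL9A3 was already bright on mock, at 4.78, and reached 5.88, 5.88 and 5.91. Its differences of 1.10, 1.10 and 1.13 were just over 2-fold, and fell to 0.98 with DAC and 0.87 with OR-2003 when the arrays were scaled by their medians, which ended both calls. COL9A1, the remaining chain of collagen IX, was low on every array, at -3.41 on mock and -3.06, -3.29 and -3.79 with the drugs.

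COL16A1, a FACIT found in skin and cartilage, had 0.68 on mock and 2.43, 2.59 and 2.68 with the drugs, differences of 1.75, 1.91 and 1.998. Its probes disagreed. The second probe, brighter on mock, had 1.05 there and 0.89, 0.79 and 0.72 with the drugs, differences of -0.16, -0.26 and -0.33. COL16A1 was therefore induced by 1 of its 2 probes, and the reason for this was not tested. COL12A1, a FACIT of dense connective tissue, had 2.55 on mock and 3.07, 3.01 and 3.00, 0.53, 0.46 and 0.45 higher and not past 2-fold. Of the other FACITs, COL21A1 moved from -6.21, not well above background, to -2.73, -2.92 and -2.67, and COL19A1 and COL22A1 were not well above background on any array.

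**Figure D3:**
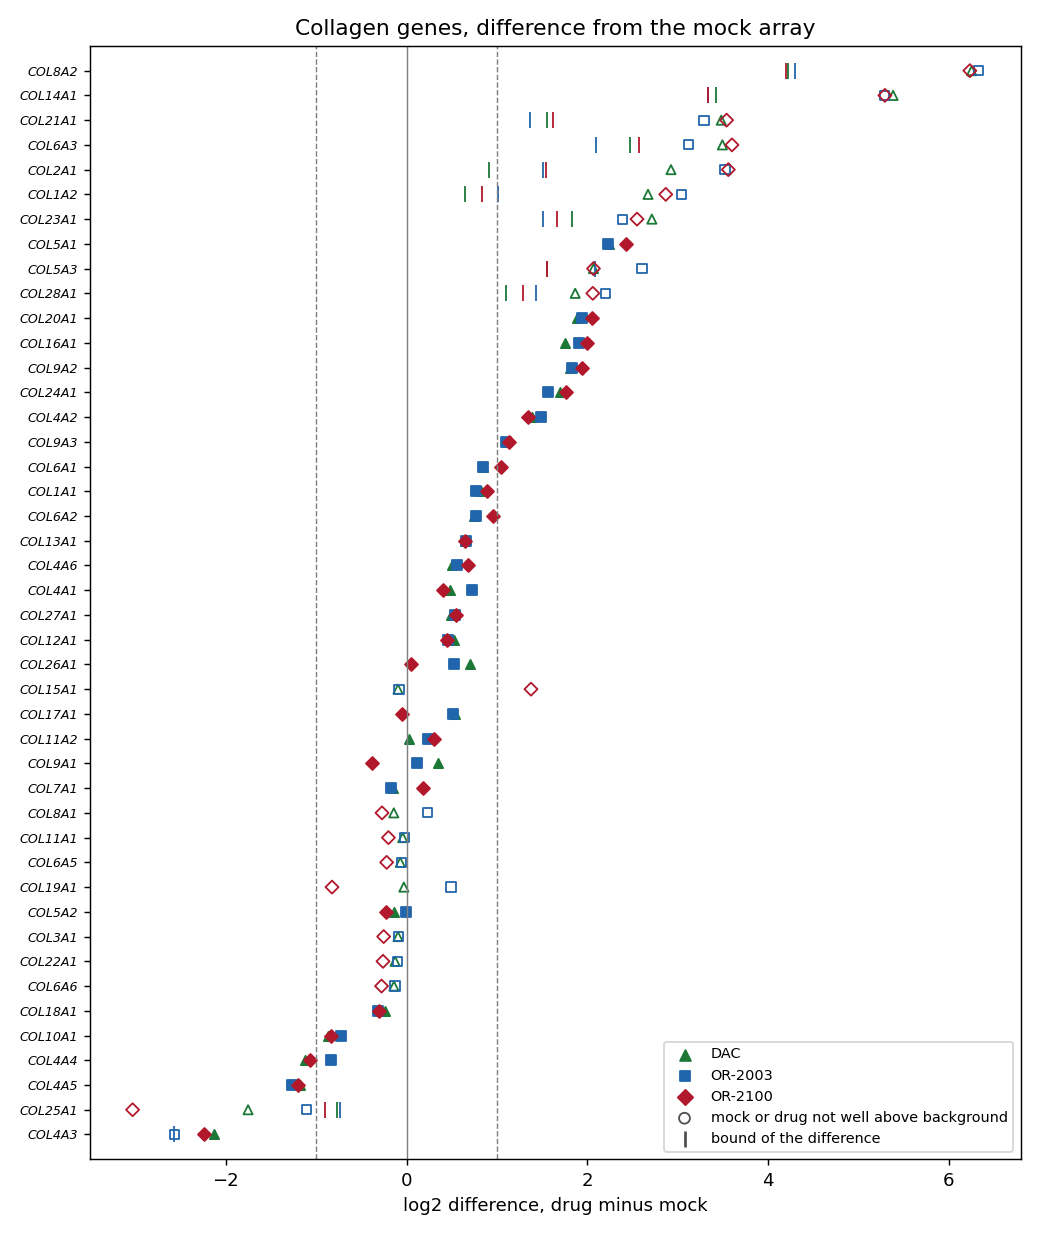
Log2 difference from the mock array for each of the 44 collagen genes with DAC, OR-2003 and OR-2100 (x axis), sorted by the mean of the 3; open symbols mark genes whose probe was not well above background on one of the arrays compared, vertical ticks the bound that then applies, and dashed lines 2-fold. COL8A2 and COL14A1 lie at the top with bounds beyond 10-fold, and COL4A3, COL25A1, COL4A5 and COL4A4 lie at the bottom.

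The 6 genes of collagen IV, the network of the basement membrane, did not move together. They lie in head-to-head pairs that share the stretch between their starts. COL4A2 rose from -0.38 on mock to 1.01, 1.10 and 0.96, 2.63-fold, 2.79-fold and 2.54-fold. COL4A1, its partner in the most widespread collagen IV molecule, had -2.80 on mock and -2.31, -2.07 and -2.40 with the drugs, differences of 0.49, 0.73 and 0.40. Both genes were above mock with each drug, and only COL4A2 passed 2-fold. With normexp background correction COL4A2 was 0.98 higher with both DAC and OR-2100, just under 2-fold.

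The starts of COL4A1 and COL4A2 are 127 bases apart on chromosome 13, and the 126 bases between them are shown because both genes are read from them, in opposite directions. The stretch is chr13:110307158-110307283, read on the plus strand, toward COL4A2, with CG in capitals.
COL4A1/COL4A2: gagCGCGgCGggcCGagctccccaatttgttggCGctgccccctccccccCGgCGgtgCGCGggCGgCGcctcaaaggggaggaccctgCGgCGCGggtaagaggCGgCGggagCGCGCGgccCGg
It holds 20 CG.

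COL4A3 and COL4A4, chains of the basement membrane of the kidney glomerulus, were both lower with the drugs. COL4A3 had -1.79 on mock and -3.92, -4.36 and -4.04 with the drugs. It was 4.37-fold and 4.74-fold lower with DAC and OR-2100, and at least 5.94-fold lower with OR-2003, where the probe was not well above background. With normexp COL4A3 differed by -0.63, -0.72 and -0.76 on the log2 scale, under 2-fold with every drug. As its mock level was under -1 it was not counted as reduced. COL4A4 had 1.78 on mock and 0.66, 0.94 and 0.72 with the drugs, 2.17-fold lower with DAC, 2.09-fold with OR-2100 and 1.79-fold with OR-2003. Its call was lost with DAC and OR-2100 under normexp, quantile normalization and the 75th percentile of bright probes. COL4A5 had 2.89 on mock and 1.71, 1.63 and 1.70, and fell by 1.18, 1.27 and 1.20 on the log2 scale. Its calls with DAC and OR-2100 were lost under the 75th percentile of bright probes. COL4A6, its partner, had -1.34 on mock and -0.84, -0.78 and -0.66, differences of 0.50, 0.56 and 0.68 in the opposite direction.

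The stretches before COL4A3 (chr2:227164374-227164623, plus strand) and COL4A5 (chrX:108439588-108439837, plus strand), are shown for the head-to-head pairs COL4A3/COL4A4 and COL4A5/COL4A6, which hold the lowered collagen IV genes, again with CG in capitals. The starts are 419 bases apart in the first pair and 380 in the second, so both stretches lie between the starts.
COL4A3: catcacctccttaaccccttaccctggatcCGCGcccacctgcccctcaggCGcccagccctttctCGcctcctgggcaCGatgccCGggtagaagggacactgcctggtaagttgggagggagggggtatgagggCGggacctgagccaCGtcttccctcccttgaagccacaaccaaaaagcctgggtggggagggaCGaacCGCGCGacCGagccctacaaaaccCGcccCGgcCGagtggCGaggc
COL4A5: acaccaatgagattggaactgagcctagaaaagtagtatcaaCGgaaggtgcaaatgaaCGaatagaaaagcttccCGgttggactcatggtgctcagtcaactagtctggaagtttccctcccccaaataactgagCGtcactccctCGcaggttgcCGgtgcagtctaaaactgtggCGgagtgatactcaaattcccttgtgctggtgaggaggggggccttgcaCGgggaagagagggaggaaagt
The COL4A3 stretch holds 17 CG and GGGCGG, and the COL4A5 stretch 8 CG and CCAAT, each motif on one strand or the other.

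The brightest collagen probes on mock were those of COL18A1, COL6A1, COL9A3, COL4A5 and COL12A1, an order of probe brightness and not of transcripts. COL18A1, whose protein is the source of endostatin, had 6.17 on mock and 5.93, 5.85 and 5.87 with the drugs, differences of -0.24, -0.32 and -0.30, which turned to 0.042 with DAC and 0.060 with OR-2100 after quantile normalization. COL6A1, a chain of the beaded filaments of collagen VI, had 5.52 on mock and 6.37, 6.36 and 6.57, differences of 0.85, 0.84 and 1.05. It passed 2-fold with OR-2100 alone, and the 3 drug values lay within 0.21 of each other. This call depended on the scaling: with OR-2100 it was lost under median scaling (0.96), DAC also passed under quantile normalization (1.02), and DAC and OR-2003 also passed under the percentile of bright probes (1.05 and 1.04). COL6A2, which is joined with COL6A1 in the same molecule, had 1.44 on mock and 2.18, 2.20 and 2.40. COL6A3, the large chain of collagen VI, was not well above background on mock (-5.31) and was so with each drug (-1.82, -2.19 and -1.71), at least 5.54-fold, 4.26-fold and 5.96-fold higher. With normexp its differences were 0.61, 0.47 and 0.72 on the log2 scale, under 2-fold. COL6A5 and COL6A6 were not well above background on any array.

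COL8A2, COL14A1 and COL6A3 were among 9 genes whose probe was not well above background on mock and was so on all 3 drug arrays, the others being COL1A2, COL2A1, COL5A3, COL21A1, COL23A1 and COL28A1. By the probe used for each gene this was 9 of the 17 collagen genes not well above background on mock (52.9%), where 19.5% of 8041 such genes among all named genes made the same step, chosen by the same probe rule. The second probe of COL8A2 was well above background on mock. Only COL8A2 and COL14A1 reached -1 with a drug, and the other 7 stayed at -1.71 or lower. COL1A2, a chain of collagen I, had -6.31 on mock and -3.64, -3.28 and -3.45 with the drugs, at least 1.56-fold, 2.01-fold and 1.79-fold higher. Its partner COL1A1 was measured on all 4 arrays, at 0.99 on mock and 1.82, 1.76 and 1.89, differences of 0.83, 0.77 and 0.90. COL2A1, the collagen of cartilage fibrils, had -6.30 on mock and -3.38, -2.78 and -2.74, at least 1.88-fold, 2.84-fold and 2.92-fold higher. With normexp the differences were smaller, 0.15, 0.29 and 0.21 on the log2 scale for COL1A2 and 0.15, 0.37 and 0.31 for COL2A1. COL24A1, measured on all 4 arrays, was 3.24-fold, 2.97-fold and 3.40-fold higher than -3.02 on mock but stayed under -1.

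In the opposite direction, COL4A3 and COL25A1 were well above background on mock and not on at least 1 drug array. COL25A1, a transmembrane collagen, had -3.65 on mock and -5.40, -4.75 and -6.68, not well above background with any drug, at least 1.70-fold, 1.67-fold and 1.87-fold lower. The 8 genes not well above background on any array were COL3A1, COL6A5, COL6A6, COL8A1, COL11A1, COL15A1, COL19A1 and COL22A1, with levels of -6.87 to -5.07. COL3A1, the partner of collagen I in soft tissues, was thus not seen with any drug.

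Of the genes not yet described, COL5A2, COL7A1, COL10A1, COL11A2, COL13A1, COL17A1, COL26A1 and COL27A1 were well above background on all 4 arrays and neither induced nor reduced. COL10A1, the collagen of hypertrophic cartilage, fell most among these, with -1.66 on mock and differences of -0.87, -0.73 and -0.83. At a mock level under -1 it could not be counted as reduced. COL13A1 and, by the probe used, COL27A1 were a little higher with each drug, by 0.64, 0.66 and 0.65 and by 0.49, 0.54 and 0.54. A second COL27A1 probe, also well above background on all 4 arrays, did not show this, with differences of 0.0086, -0.10 and -0.059. COL5A2 differed by -0.13, -0.0042 and -0.23.

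OR-2003 and OR-2100 were compared with DAC and with each other at the same dose and time, over 3 pairs of arrays. None of the 44 collagen genes was 2-fold apart in any pair at a level of -1 or more, where 0.008%, 0.008% and 0.004% of all named genes were. Of the 34 collagen genes well above background on all 3 drug arrays, 0 were 2-fold apart in each pair at any level, where 0.0798%, 0.137% and 0.285% of 17547 genes were. The median absolute log2 difference over these 34 genes was 0.092 between DAC and OR-2003, 0.10 between DAC and OR-2100 and 0.14 between OR-2003 and OR-2100, against 0.082, 0.11 and 0.11 over all 17547. The widest differences were COL2A1 between DAC and OR-2003 (0.60), COL9A1 between DAC and OR-2100 (0.73) and COL17A1 between OR-2003 and OR-2100 (0.57), all at low levels. With 1 array for each compound no interval of a difference can be given, and these values do not show that the compounds act alike.

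Genes that make, modify and bind collagen were counted by the same thresholds. As given above, 5.77% to 5.89% of all named genes were induced and 5.96% to 6.82% reduced. Of 33 genes of collagen biosynthesis, 3 were induced by each drug and 1 was reduced, with medians of 0.27, 0.087 and -0.069. The medians over all named genes were -0.12, -0.093 and -0.23. The median of 0.27 with DAC is the value of ADAMTS3, which was not well above background on any array. P3H2, a prolyl 3-hydroxylase, had -0.08 on mock and 1.78, 1.91 and 1.68 with the drugs. PCOLCE2, an enhancer of procollagen cleavage, had 1.39 and then 2.89, 2.78 and 2.82, and LOXL3, a lysyl oxidase, had -0.32 and then 1.05, 0.99 and 1.19. ADAMTS14, a procollagen N-proteinase, was the reduced gene, at 3.20 on mock and 0.90, 0.89 and 1.14 with the drugs. LOX itself was not well above background on any array. Of 11 collagen receptors, 0 were induced or reduced with any drug. Of 16 laminins, nidogens and other basement membrane partners, 2 were induced with DAC, 1 with OR-2003 and 1 with OR-2100, and 0 were reduced. NID1, a nidogen that links laminin to collagen IV, was not well above background on mock (-6.36) and had 0.65, 0.47 and 0.66 with the drugs, at least 30.6-fold, 27.0-fold and 30.8-fold higher. LAMA3, a laminin chain of epithelial basement membranes, passed 2-fold with DAC alone (1.01, against 0.97 and 0.89).

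Markers of cell types were read on the same arrays, since collagens are typical of fibroblasts. Over all named genes, 19.5% of the 8041 not well above background on mock were well above it on all 3 drug arrays. With each drug 5.77% to 5.89% of all named genes were induced and 5.96% to 6.82% reduced. Of 10 colon epithelial markers 7 were well above background on mock and 9 with each drug, and KRT8, KRT18 and KRT19 were bright on all arrays (6.41, 8.78 and 9.34 on mock), while CDH17 was not well above background on any. EPCAM and CDH1 were reduced by each drug, by 1.49, 1.52 and 1.46 and by 1.09, 1.18 and 1.25 on the log2 scale. LGALS4 was induced by each drug. KRT8, KRT18, KRT19, KRT20, CDX2 and VIL1 were also higher than mock with each drug, without a call. KRT20 and VIL1 went from not well above background on mock to well above it with every drug. The median log2 difference over the 10 epithelial markers was 0.59, 0.42 and 0.39. Of 10 fibroblast markers 3 were well above background on mock and 8 with each drug, and their summed level rose from 0.95 to 3.24, 3.28 and 3.25. That sum adds the intensity of probes that cannot be ranked against each other. With each drug its largest part was THY1, the next being ACTA2 at 0.73, 0.61 and 0.59. THY1 was at -5.22 on mock and 2.57, 2.65 and 2.61 with the drugs, and was the only one of the 10 induced. PDGFRA, FAP, DCN and PDPN also went from not well above background on mock to well above it with every drug, DCN by at least 6.63-fold, 7.26-fold and 6.60-fold and PDPN by at least 3.83-fold, 3.33-fold and 4.76-fold. PDGFRB, ACTA2 and TAGLN were well above background on all 4 arrays, and LUM and POSTN on none. PDGFRB was lower with each drug, with differences of -0.63, -0.29 and -1.08, but under -1 on mock and so not counted as reduced. ACTA2 differed by 0.68, 0.56 and 0.54 and TAGLN by 0.73, 0.78 and 0.75. Of 5 endothelial markers 2 were well above background on mock and 4 with each drug, with a summed level of -0.91 and then 1.36, 1.35 and 1.36. VWF was induced, at -2.07 on mock and 0.81, 0.75 and 0.85 with the drugs, and was the largest part of that sum with each drug. PECAM1 and TEK went from not well above background on mock to well above it with every drug. CDH5 differed from mock by -0.19, 0.03 and -0.73, and KDR was not well above background on any array. The part of these markers in the collagen values was not tested, and in RNA of a whole culture more cells with a transcript and more of it per cell cannot be told apart.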

How the data were processed

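Total RNA of HML58-3 cells was hybridised on 4 one-colour Agilent arrays, 1 per condition, on 1 slide and in 1 scan run. The authors deposited the scanner output, whose intensity had been background-corrected by Feature Extraction 12.1.0.3 and not normalized between arrays. The value table of the series, also deposited, equalled them at all 251904 spots.

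Control spots and spots marked as outliers (52 to 98 gene spots per array) were left out, and log2 values were averaged over spots of a probe. A probe was called well above background if the scanner software called over 0.5 of its spots so. Probes were named through RefSeq accessions (34892 of 58201). The reference table is of GRCh38.p14. The thresholds of induced genes follow the methods of the paper. The collagen genes, classes and other lists were chosen with earlier results of these data known.

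Named with values were collagen genes induced or reduced by at least 1 drug, the 5 with the highest mock level, any 2-fold apart between drugs, the collagen IV pairs, and up to 5 called genes of each other list. Other genes were named after their values were seen. A list of leukocyte markers is not reported here. No test was run, as each condition was 1 array. The counting was tested on simulated data. Alternatives were normexp (offset 50, on the median signal), other scalings, a floor, filters, spot and probe rules and other thresholds. Python 3.11.15, numpy 2.4.6, pandas 2.3.3, matplotlib 3.10.9, R 4.3.3 and limma 3.58.1 were used.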

Additional observations from a re-analysis of the deposited data

Results flagged for a closer look

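Collagen genes measured on all 4 arrays moved in opposite directions with different drugs in 3 cases, and these differences were not tested, since each drug was 1 array. COL9A1 was 0.35 and 0.12 higher than mock with DAC and OR-2003 and differed by -0.38 with OR-2100, a range of 0.734 on the log2 scale. COL17A1, a collagen of hemidesmosomes, differed from mock by 0.54, 0.51 and -0.05, a range of 0.590. COL7A1, the collagen of anchoring fibrils, differed by -0.15, -0.17 and 0.18, a range of 0.352. COL9A1 and COL17A1 were at -3.06 or lower on every array, whereas COL7A1 was at 0.31 to 0.66. The -0.05 of COL17A1 is smaller than the SD between spots of a probe (0.059 to 0.067). The signs also moved with the scaling: under the percentile of bright probes COL7A1 (0.045, 0.028 and 0.40) and COL17A1 (0.74, 0.72 and 0.17) were positive with every drug, and with normexp COL9A1 (-0.12, -0.087 and -0.19) was negative with every drug.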

How the results depend on the processing

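Of 195 alternative values of the counts and medians, 135 stayed close to those reported and 60 moved. A count could only stay close or move, so only the medians could change direction, and none did. The deposited series table, which equalled the scanner values, could not differ and is among those that stayed close. The collagen median lay 0.65, 0.64 and 0.83 above that of all genes with DAC, OR-2003 and OR-2100, a gap that scaling by 1 constant per array cannot change, and 0.29, 0.37 and 0.36 above it with normexp. With normexp the collagen medians were 0.15, 0.29 and 0.21. In that setting 1 gene each was reduced with DAC and OR-2100, where 3.59% and 4.4% of all genes were. Quantile normalization gave 1 reduced gene each with DAC and OR-2100 (4.74% and 5.33% of all genes were) and a median of 0.71 with OR-2100. The 75th percentile of bright probes gave 5 induced genes with DAC, 4 with OR-2003 and 4 with all 3 drugs, 0 reduced genes with DAC, OR-2100 and all 3, and medians of 0.73, 0.75 and 0.82; it lowered levels against the fixed threshold, and 2.97% of all genes were induced and 2.01% reduced by all 3. Median scaling raised levels and gave 15, 15, 16 and, with all 3 drugs, 15 induced genes, 4 reduced genes in each case (9.46% of all genes were reduced and 10% induced by all 3), and medians of 0.41 and 0.33 with DAC and OR-2003. Scaling by 8 spike-in probes gave a median of 0.42 with OR-2003, and a floor at the background limit one of 0.50 with OR-2100. Over the 36 genes seen on at least 1 array the medians were 0.79, 0.77 and 0.93. Averaging a gene's probes gave 5, 4, 5 and 4 induced genes, where 5.01%, 5.11%, 5.07% and 4.58% of all genes were induced. The probe brightest on mock gave 5 induced genes with DAC, OR-2003 and all 3, where 5.41%, 5.52% and 4.93% of all genes were. It also gave a median of 0.50 with OR-2100 and turned COL16A1 to -0.16, -0.26 and -0.33. At 4-fold, 3, 3, 4 and 3 genes were induced and 0 reduced. Of all genes 3.29% to 3.44% were induced at 4-fold per drug and 0.668% to 0.808% reduced. A level of 0 left 5 induced genes with DAC and 5 with all 3, where 4.27% of all genes were induced with DAC. With no level threshold 16, 16, 18 and 16 genes were induced and 4, 3, 4 and 3 reduced. Of all genes 13.5% to 14.8% were then induced per drug and 10.8% to 15.4% reduced. In this setting 2 and 3 collagen genes were 2-fold apart when OR-2100 was set against DAC and against OR-2003. They were COL15A1 and COL25A1, and against OR-2003 also COL19A1. None of these genes was well above background on any drug array by the probe used. Of 69 gene and drug values, 64 kept their sign under every setting, the exceptions being COL16A1 and, with DAC and OR-2100, COL18A1. No paired analysis was possible because there was 1 array per condition, and for the same reason no array could be left out. Genes near background are limited by signal, not by the number of spots.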
